A study of Mus musculus with 8 samples.

Results

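The matrix metalloproteinases Mmp2, Mmp3 and Mmp14 and the tissue inhibitors of metalloproteinases Timp1, Timp2 and Timp3 were followed in the epididymal fat pad, the white fat that lies along the epididymis of the male, in 4 mouse lines. These 6 genes are 6 of the 6137 genes that the arrays name. They were selected on their symbols, after earlier results from the same arrays, the DU6 to DUKs ratio of Timp1 among them, were known. The ratios of the members below are therefore a description, with no test. Each member had 1 probe set. Signals of 5 of the 6 rose above the floor of their chip on at least 1 array, as did those of 3752 of the 6137 named genes. Mmp3 stayed under it on all 4. Timp1 and Timp2 differed most between the lines: Timp1 was highest in DU6, and Timp2 was highest in DUKs. Of the measured members, Mmp2, a gelatinase, varied least.

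The lines were DU6, DU6i, DUKs and DBA. Each was represented by RNA pooled from the epididymal fat of 20 male animals aged 42 days, and each pool was hybridised to 1 array of chip A and 1 array of chip B, which gives 8 arrays. In the series title DU6 stands with DU6i and DUKs with DBA, and the labels name adiposity, selected lines, diabetes, insulin and leptin as keywords. As general knowledge, DU6 was selected for high body weight, DU6i is an inbred line derived from it, DUKs is an unselected control line and DBA is an inbred strain. The labels name no treatment and no engineered allele. Differences between animals are averaged out within a pool, and there are no replicates: each value below is 1 array of 1 pool.

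Matrix metalloproteinases are zinc enzymes that cut collagens and other proteins around cells, and the Timp proteins block their active sites. The balance of enzyme and inhibitor sets how fast matrix is remodelled, which in fat tissue goes along with adipocyte enlargement and the growth of vessels. Timp2 has a second role: bound to the membrane enzyme Mmp14, it helps to bring the precursor of Mmp2 to the cell surface, where Mmp14 activates it.

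Promoter sequences are shown for Timp1 and Timp2, because these members differed most between the lines, with opposite signs in 4 of the 6 pairs. They are RefSeq sequences on the build GRCm38.p6, written 5′ to 3′ on the strand of the gene. A promoter window of 300 bases, 250 before and 50 after the start, was found for 5 of the 6 members, all but Mmp2. The windows were searched on both strands for 5 motifs: AP-1 (TGANTCA), an AP-1-like form (TGAGTAA), ETS (AGGAAG), the Sp1 GC box (GGGCGG) and STAT (TTCCNGGAA). None of these letter strings contains another. Capitals mark the matches, and in the last bases of the first Timp1 sequence the GC box is read on the opposite strand.
Timp1, 250 bases before the start, chrX:20869916-20870165, plus strand: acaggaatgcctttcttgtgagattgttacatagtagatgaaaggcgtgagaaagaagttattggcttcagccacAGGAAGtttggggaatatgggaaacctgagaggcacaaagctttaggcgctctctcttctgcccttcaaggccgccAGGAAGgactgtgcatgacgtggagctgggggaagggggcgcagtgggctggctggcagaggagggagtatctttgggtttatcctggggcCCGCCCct
Timp1, positions 23 to 49 after the start, chrX:20870188-20870214, plus strand: tggaTGAGTAAtgcgtccAGGAAGcct
Timp2, 250 bases before the start, chr11:118355412-118355661, minus strand: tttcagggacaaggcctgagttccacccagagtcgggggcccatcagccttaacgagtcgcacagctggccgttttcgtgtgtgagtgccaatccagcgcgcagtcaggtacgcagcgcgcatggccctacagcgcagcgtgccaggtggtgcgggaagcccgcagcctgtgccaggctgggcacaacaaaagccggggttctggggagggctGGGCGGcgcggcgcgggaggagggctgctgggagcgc

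The Timp1 window held the AP-1-like string once, at position 27 counted from the start. It held AGGAAG 3 times, at 175 and 99 bases before the start and at position 41 after it. Its GC box began 8 bases before the start. The Timp2 window held 1 match in all, the GC box 37 bases before the start. Among the other members, Timp3 and Mmp14 held 1 AGGAAG and 2 GC boxes each. The AP-1 string was found in the Mmp3 window alone among the 5, 46 bases before the start, at 1 place that reads on both strands, beside 1 AGGAAG. The STAT string was in none of the 5 windows. Of all 32851 promoter windows in the table, 7.81% held the AP-1 string, 2.68% the AP-1-like string, 35.4% AGGAAG, 35.7% the GC box and 1.15% the STAT string. These matches describe letters in the windows and were not set against the signals.

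Signals are linear intensities in arbitrary units, scaled by the authors over all probe sets of an array. The floor, below which signals were not told from noise, was 1022.8 on chip A and 2258.25 on chip B. These are the sizes under which 95% of the negative signals of that chip lay, and signals at or under it were set to it before ratios were taken. Between 3045 and 3334 of 6529 compared probe sets on chip A were above the floor, and between 1639 and 1823 of 6540 on chip B. A control transcript, pyruvate carboxylase, split the lines: on chip B the signal of its middle was 12.7% of the signal of its 3′ end in DU6 and 14.3% in DBA, against 45.3% in DU6i and 55.6% in DUKs. The same split stood on chip A, at 15.3% and 19.5% against 54.5% and 53.9%. The markers of adipocytes, the defining cells of the tissue, were above the floor on all 4 arrays for 9 of 9 genes with a probe set. Their summed signal, over chips that were scaled separately, was 170918 in DU6, 333139 in DU6i, 257908 in DUKs and 180040 in DBA. The 99th percentile of all chip A signals had the same order of lines, at 18810 in DU6, 34793 in DU6i, 27552 in DUKs and 23450 in DBA. On chip B it was 49489 in DU6, 34692 in DU6i, 52203 in DUKs and 33621 in DBA. The part of these array-wide differences in the marker sums was not tested. Germ cell markers, 6 of 6 above the floor on some array, summed to between 37539 in DU6i and 202031 in DUKs. Markers of the epididymis and male tract, also 6 of 6, summed to between 12956 in DU6i and 184997 in DBA, with Gpx5 below 0 in DU6i and Svs2 and Svs5 below 0 in DU6, DU6i and DUKs. In whole tissue, fewer cells of a type and less RNA per cell cannot be told apart.

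Timp1, a secreted inhibitor of most matrix metalloproteinases, gave a signal of 8033 in DU6, 2527 in DU6i, 2838 in DUKs and 4270 in DBA (probe set v00755_s_at, chip B). DU6 stood above the other 3 lines, and the signals in DU6i and DUKs lay just above the floor. The signal in DU6 was 2.83-fold that in DUKs, a log2 ratio of 1.5. It was 3.18-fold that in DU6i (log2 ratio 1.67) and 1.88-fold that in DBA (log2 ratio 0.91). In the other main pair the order turned: the signal in DU6i was 1.69-fold lower than in DBA, a log2 ratio of -0.76.

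Such ratios were judged against the disagreement of probe sets, in genes that had 2 of them measured in both lines. As an SD per log2 ratio it ran from 0.34 for DU6i with DBA (348 genes) to 0.46 for DU6 with DU6i (339 genes). A ratio was counted as beyond the spread where it passed the 95% range (normal) that this SD gives. It covers differences between probe sets, not between animals or pools. The limit was 0.86 for DU6 with DUKs, 0.67 for DU6i with DBA, 0.90 for DU6 with DU6i, 0.81 for DUKs with DBA, 0.70 for DU6 with DBA and 0.78 for DU6i with DUKs. In falling order Timp1 ran DU6, DBA, DUKs, DU6i. The step from DU6 to DBA was beyond the spread, whereas the steps from DBA to DUKs (log2 ratio 0.59) and from DUKs to DU6i (0.17) were not. With the floor doubled, the log2 ratio of DU6 with DUKs was known only as at least 0.83. That bound was short of the 0.86 limit, which was taken with the floor not doubled. Neither a 2-fold difference nor one beyond the spread could then be shown.

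Timp2, the inhibitor that also takes part in the activation of Mmp2, gave 4159 in DU6, 5226 in DU6i, 10020 in DUKs and 1865 in DBA (probe set x62622_s_at, chip B). The DUKs signal was the highest, and the DBA signal lay under the floor. Against DUKs the DU6 signal was 2.41-fold lower, a log2 ratio of -1.27. It was at least 2.31-fold higher in DU6i than in DBA, and at least 4.44-fold higher in DUKs than in DBA. With the floor doubled these bounds fell to log2 ratios of 0.21 and 1.15, and with log2(signal + floor) the DU6i with DBA value was 0.86, so that 2-fold in that pair rests on the floor chosen. The order was DUKs, DU6i, DU6, DBA. The step from DUKs to DU6i was beyond the spread (log2 ratio 0.94), as was the step from DU6 to DBA, at least 1.84-fold. DU6i and DU6, with a log2 ratio of 0.33, did not differ beyond it.

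Timp3, the inhibitor that binds to the matrix and also blocks Adam proteinases, gave 12398 in DU6, 14130 in DU6i, 9040 in DUKs and 15252 in DBA (probe set z30970_s_at, chip B). The highest signal was 1.69-fold the lowest, and DUKs was the low line. The log2 ratio was 0.46 for DU6 with DUKs and -0.11 for DU6i with DBA. The ratios of Timp3 in the 6 pairs of lines were all within the spread.

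Mmp2, gelatinase A, which cuts denatured collagen and basement membrane collagen, gave 14100 in DU6, 14699 in DU6i, 15540 in DUKs and 13344 in DBA (probe set M84324_s_at, chip A). These signals lay within 1.16-fold of each other. The log2 ratio was -0.14 for DU6 with DUKs and 0.14 for DU6i with DBA, and its sign in DU6 with DUKs turned to 0.06 under quantile normalisation. Measured by the root mean square of its log2 signals around their mean, Mmp2 varied by 0.08, against a median of 0.26 for the 2656 probe sets of chip A above the floor on all 4 arrays. Mmp14 varied by 0.25 on the same measure. On chip B, where the median was 0.30 over 1318 probe sets, Timp1 varied by 0.65 and Timp3 by 0.29.

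Mmp14, the membrane-bound collagenase that activates the Mmp2 precursor, gave 3529 in DU6, 2198 in DU6i, 2686 in DUKs and 2551 in DBA (probe set u54984_s_at, chip A). DU6 was the highest line, 1.61-fold above DU6i, the lowest. The log2 ratio was 0.39 for DU6 with DUKs, -0.21 for DU6i with DBA and 0.68 for DU6 with DU6i. None of the 6 ratios was beyond the spread. Mmp3, stromelysin 1, a secreted enzyme that cuts many matrix proteins and the precursors of other metalloproteinases, gave 414 in DU6, 1059 in DU6i, 84 in DUKs and 341 in DBA (probe set x66402_s_at, chip B). The highest of these was 46.9% of the floor, so no order and no ratio can be read from them, and a transcript below this limit was not detectable here.

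**Figure D1:**
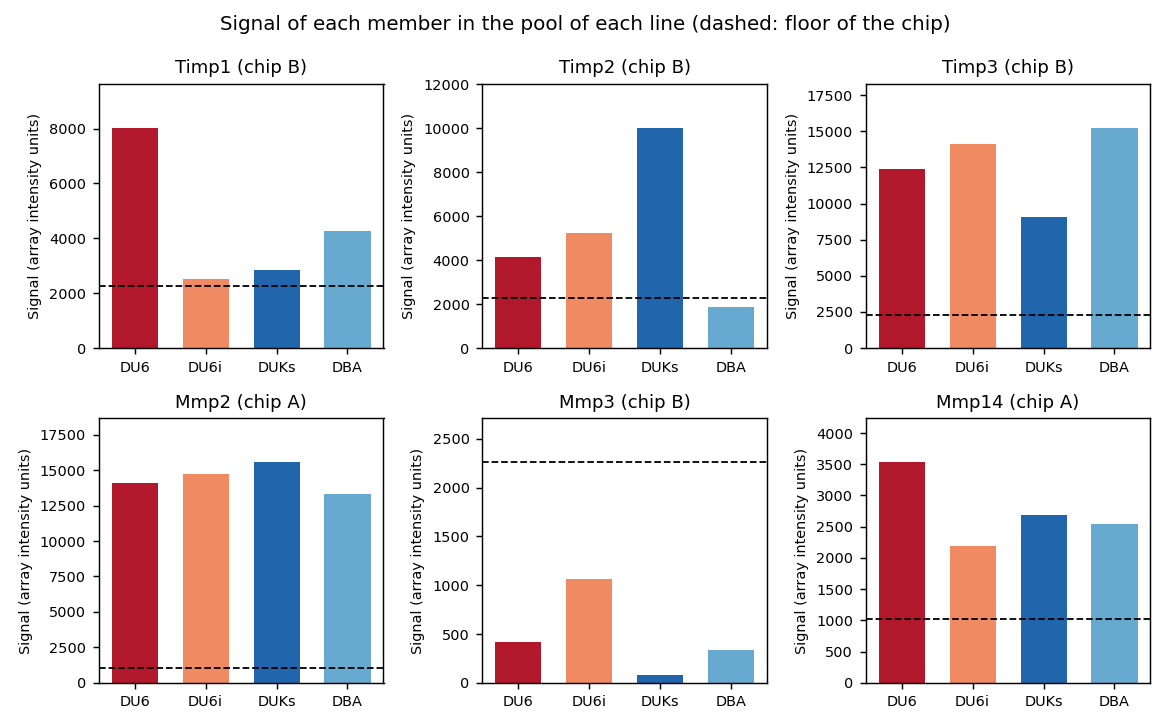
Signal of each of the 6 genes (array intensity units, linear axis from 0) in the 4 lines, 1 bar for each pool, with no error bars because each line has 1 array of a chip. The dashed line is the floor of the chip: Timp1 stands out in DU6 at 8033, Timp2 in DUKs at 10020, Timp2 in DBA and all Mmp3 bars lie under the floor, and the Mmp2 bars lie between 13344 and 15540.

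Of the 5 measured members, 2 reached 2-fold in DU6 with DUKs, Timp1 higher and Timp2 lower in DU6. Of all 5604 probe sets measured in that pair, 3.91% were 2-fold or more higher and 6.30% lower in DU6. The earlier results used this contrast, so nothing is read from that count. In DU6i with DBA, 1 member reached 2-fold, Timp2, higher in DU6i, where 4.79% of 5556 probe sets were higher and 6.68% lower. Timp1 alone reached it in DU6 with DU6i, higher in DU6, beside 4.80% of 5478 probe sets higher and 5.70% lower. In DUKs with DBA it was Timp2, higher in DUKs, beside 6.01% of 5691 probe sets higher and 5.29% lower. No member reached 2-fold in DU6 with DBA, where 3.79% of 5491 probe sets were higher and 4.17% lower in DU6. None reached it in DU6i with DUKs either, where 3.39% of 5579 probe sets were higher and 6.76% lower in DU6i. Over the 6 pairs, the size of the log2 ratios ran from 0.11 to 2.15 for the 3 inhibitors and from 0.06 to 0.68 for Mmp2 and Mmp14. The median log2 ratio of the 5 measured members was 0.39 in DU6 with DUKs and -0.11 in DU6i with DBA, beside 0.05 and -0.03 for all measured probe sets.

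**Figure D2:**
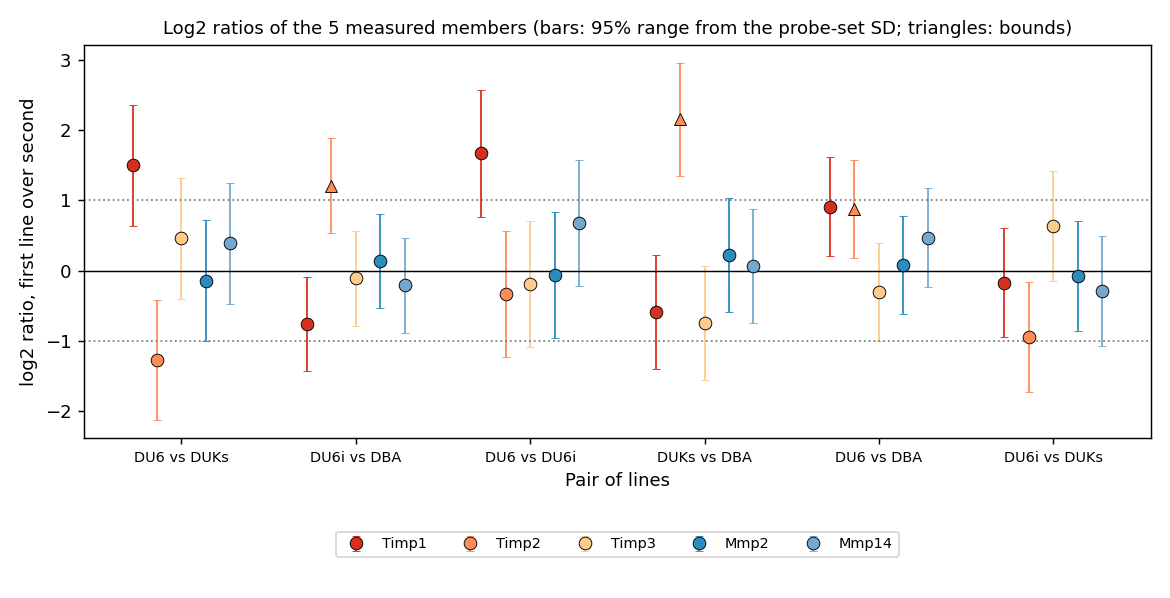
Log2 ratio, first line over second, of the 5 measured genes in the 6 pairs of lines; bars span the 95% range given by the disagreement between probe sets, triangles are bounds set by the floor, and dotted lines mark 2-fold. Timp1 lies at 1.5 and Timp2 at -1.27 in DU6 with DUKs, on opposite sides of 0, and in DU6i with DBA they have changed sides, at -0.76 and at least 1.21.

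The log2 ratio of Timp1 less that of Timp2 gives their relative shift between lines. It was 2.77 in DU6 with DUKs, where the 95% limit for a difference of 2 ratios was 1.22, and 2.0 in DU6 with DU6i (limit 1.27). It was at most -1.97 in DU6i with DBA (limit 0.95) and at most -2.74 in DUKs with DBA (limit 1.15), since Timp2 in DBA was taken at the floor. In DU6i with DUKs it was within the limit, at 0.77. In DU6 with DBA it was at most 0.03, again with Timp2 in DBA at the floor, so that the size of the shift in that pair is not known. The 4 pairs in which the shift passed the limit are those that cross the pyruvate carboxylase split, DU6 and DBA on one side of it and DU6i and DUKs on the other. Timp1 was higher on the side with the lower control ratio and Timp2 on the side with the higher one. Within the split, Timp1 was still 1.88-fold higher in DU6 than in DBA and 1.12-fold lower in DU6i than in DUKs. Timp2 was still 1.92-fold lower in DU6i than in DUKs and at least 1.84-fold higher in DU6 than in DBA. The summed adipocyte markers ran in the reverse of the Timp1 order, from 333139 in DU6i, the lowest line for Timp1, down to 170918 in DU6, the highest, although 3 of the 9 markers were higher in DU6 than in DBA. The 99th percentile of all chip A signals, given above, had the same order of lines as these sums. Mesothelial and epithelial markers, 7 of 7 above the floor on some array, summed to 34919 in DU6, 22399 in DU6i, 27482 in DUKs and 48884 in DBA. The sums were higher in DU6 and DBA than in the other 2 lines, as for Timp1, but DBA was above DU6, whereas Timp1 was 1.88-fold higher in DU6. Stromal and fibroblast markers, 5 of 5 above the floor on some array, summed to 112258 in DU6, 83724 in DU6i, 119451 in DUKs and 80174 in DBA, but only Dcn and Col1a1, 2 of the 5, were higher in DUKs than in DBA, and the median log2 ratio was -0.41. The germ cell sum was highest in DUKs, as Timp2 was, and lowest in DU6i, where Timp2 was second. The part of the control ratio and of these cell types in the Timp1 and Timp2 ratios was not tested.

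**Figure D3:**
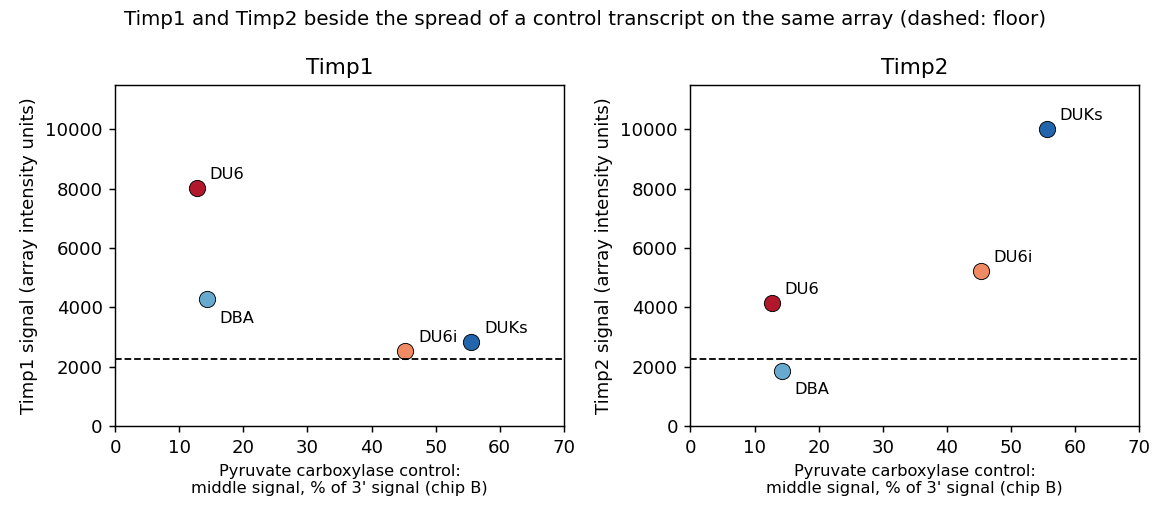
Signals of Timp1 and Timp2 (array intensity units) against the middle signal of the pyruvate carboxylase control as a percent of its 3′ signal on the same chip B array, 1 point for each line; the dashed line is the floor. DU6 and DBA lie at 12.7% and 14.3%, DU6i and DUKs at 45.3% and 55.6%, and Timp1 is higher in the first 2 while Timp2 is higher in the other 2.

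The patterns most like each member were sought by the root mean square difference of log2 signals, centred over the 4 lines, among named probe sets of the same chip above the floor on all 4 arrays. With 4 lines such likeness is a description. For Timp1 the nearest of 598 was Glg1, a Golgi glycoprotein, with a difference of 0.23 and signals of 42296 in DU6, 19988 in DU6i, 21468 in DUKs and 27093 in DBA. Ift20 (0.31) and Anapc13 (0.32) followed. Timp3 differed from Timp1 by 0.67, and 326 of the 598 were nearer to Timp1 than Timp3 was. Nearest to Timp3 were M6pr (0.054), a mannose 6-phosphate receptor, Man2a1 (0.074), a Golgi mannosidase, and Trappc10 (0.076). For Mmp2, among 2403 probe sets of chip A, they were Btg1 (0.02), Rrs1 (0.027) and Hnrnpab (0.029). For Mmp14 they were Vps26c (0.013), Trio (0.018) and Wdr81 (0.03). Mmp2 and Mmp14 differed by 0.27, and of the 2403, 1114 were nearer to Mmp2 and 837 nearer to Mmp14 than that. The differences also depend on how much a gene varies, so their sizes are not compared between members. Timp2 and Mmp3 were not compared in this way, since they were not above the floor on all 4 arrays.

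The wider system of matrix proteolysis was taken as 7 lists with 102 genes on the arrays. Beside the counts of list genes above the floor given below, 3752 of all 6137 named genes were above it on some array. In DU6 with DUKs, 8 of 69 measured list genes (11.6%) were 2-fold or more higher in DU6 and 0 were lower, with a median log2 ratio of 0.16. Mmp12, Thbs2, Nid2 and Cebpb, among the 8, were under the floor in DUKs, so for them no other direction was possible. In DU6i with DBA, 5 of 69 (7.25%) were higher and 5 (7.25%) lower, with a median of 0.28. Here Adam12 was measured through DU6i alone and Serpinf2 through DBA alone, which fixed their directions too. The medians of all measured probe sets were 0.05 and -0.03, and the shares of them at 2-fold are those given above for each pair. In DU6 with DBA 10 of 69 were higher and 4 lower, and in DU6i with DUKs 5 of 73 were higher and 2 lower. Between the lines that the title puts together, 4 of 71 were higher and 6 lower in DU6 than in DU6i, and 3 of 69 were higher and 6 lower in DUKs than in DBA. The lists were chosen with earlier results of these data known, so nothing is read from these counts.

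Of 16 other matrix metalloproteinases, 6 had a probe set and 3 were above the floor on any array. Mmp12, the macrophage elastase, gave 2674 in DU6, 1839 in DU6i, 509 in DUKs and 269 in DBA. It was above the floor in both lines of the DU6 side and in neither of the others, and was at least 2.61-fold higher in DU6 against DUKs and at least 1.80-fold in DU6i against DBA. Macrophage and myeloid markers, 8 of 8 above the floor on all arrays, summed to 103059 in DU6, 113849 in DU6i, 80545 in DUKs and 69008 in DBA. Of these 8 markers, 7 were higher in DU6 than in DUKs and 7 higher in DU6i than in DBA, and their part in the Mmp12 ratios was not tested. Mmp7, matrilysin, an enzyme of epithelia, gave 3479 in DU6, 1314 in DU6i, 3562 in DUKs and 7232 in DBA, which put it 5.50-fold lower in DU6i than in DBA. DBA had the highest and DU6i the lowest summed signal of the mesothelial and epithelial and of the male tract markers as well. The male tract sum of DBA includes Svs2 (19923), Svs4 (42807) and Svs5 (43837), which were above the floor in DBA only. The other male tract markers peaked elsewhere, Gpx5 and Adam7 in DUKs and Lcn2 in DU6. The part of all these markers in the Mmp7 ratio was not tested. Mmp9, Mmp10 and Mmp13 were under the floor on all 4 arrays. Mmp11 was above it in DUKs only, at 2328.

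Adam and Adamts proteinases, membrane-bound or secreted relatives that shed surface proteins or cut proteoglycans, had 8 of 17 genes on the arrays, all 8 above the floor on some array. Adam8, found on leukocytes, gave 2965 in DU6, 744 in DU6i, 1291 in DUKs and 550 in DBA, and was 2.30-fold higher in DU6 than in DUKs. Adam12 was above the floor in DU6i only, at 2074, at least 2.03-fold higher than in DBA. Among other inhibitors and modulators of metalloproteinases, 7 of 11 genes with a probe set were above the floor. Thbs2, a matrix glycoprotein that takes part in the clearance of Mmp2, gave 2114 in DU6, 2033 in DU6i, 575 in DUKs and 868 in DBA. Against DUKs it was at least 2.07-fold higher in DU6, and against DBA at least 1.99-fold higher in DU6i. Spock2, a proteoglycan, was 2.21-fold lower in DU6i (3329) than in DBA (7356).

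Of the plasminogen system and activating proteases, 10 of 16 genes were above the floor on some array. Htra3, a secreted serine protease, gave 3846 in DU6, 3315 in DU6i, 1089 in DUKs and 1663 in DBA. It was 3.53-fold higher in DU6 than in DUKs and 1.99-fold higher in DU6i than in DBA. Serpinf1, pigment epithelium-derived factor, was 2.06-fold higher in DU6i (9926) than in DBA (4815), and 1.58-fold higher in DU6 (9862) than in DUKs (6231). Serpinf2, the plasmin inhibitor, was above the floor in DBA only, at 4671, and was at least 2.07-fold lower in DU6i. Of the cathepsins and cystatins, lysosomal proteases and their inhibitors, 10 of 11 were above the floor. The member of that list at 2-fold in either main pair was Ctsh, 2.41-fold lower in DU6i (6585) than in DBA (15839).

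Matrix substrates, the collagens, proteoglycans and glycoproteins that these enzymes cut, were above the floor on some array for 27 of 27 genes. Their median log2 ratio was 0.12 in DU6 with DUKs, with 3 of 27 at 2-fold higher and 0 lower, and 0.48 in DU6i with DBA, with 3 of 26 higher and 1 lower. The 99th percentile of all chip A signals was also higher in DU6i (34793) than in DBA (23450). On chip B these were 34692 and 33621. The part of such array-wide differences in the medians was not tested. Nid2, a basement membrane linker, gave 5378 in DU6, 7932 in DU6i, 2037 in DUKs and 2537 in DBA, at least 2.38-fold higher in DU6 than in DUKs and 3.13-fold higher in DU6i than in DBA. Fmod, a collagen-binding proteoglycan, gave 10972 in DU6, 3736 in DU6i, 3464 in DUKs and 11228 in DBA. Like Timp1, it was higher in DU6 than in DUKs, by 3.17-fold, and lower in DU6i than in DBA, by 3.01-fold. The other Fmod probe set was under the floor in DU6i and DUKs and gave bounds in the same directions, at least 3.33-fold and at least 3.03-fold. Within the sides of the pyruvate carboxylase split, Fmod differed by 1.02-fold between DU6 and DBA and by 1.08-fold between DU6i and DUKs. The part of the control ratio in the Fmod ratios was not tested. Tnxb, a tenascin that spaces collagen fibrils, was 2.21-fold higher in DU6 (18542) than in DUKs (8379), while its other probe set gave 1.74-fold. Col5a1 was 2.31-fold higher in DU6i (12239) than in DBA (5304), and 2.40-fold by another probe set. Postn, a matrix protein of fibroblasts, was 2.35-fold higher in DU6i than in DBA (26723 against 11365).

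Among inducers and transcription factors of Timp1 and Mmp genes, 10 of 23 genes with a probe set were above the floor on some array. Of the AP-1 subunits, Jund (19684 to 26935) and Fosl2 (3027 to 3557) were above the floor on all 4 arrays, Jun was above it in DU6i (2818) and DBA (4397), and Fos, Fosl1 and Junb were under it on all 4. Of the factors for the other motifs, Stat3 (10053 to 13468) was above the floor on all 4 arrays. Ets1 was above it in DU6 (8568) and DUKs (5201), and Ets2 and Sp1 were under it on all 4. The cytokine genes Il6, Il1b and Tnf were under it on all 4 as well. Cebpb, a transcription factor of adipocyte differentiation and inflammation, gave 7288 in DU6, 6266 in DU6i, 2017 in DUKs and 4314 in DBA. It was at least 3.23-fold higher in DU6 than in DUKs and 1.45-fold higher in DU6i than in DBA.

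**Figure D4:**
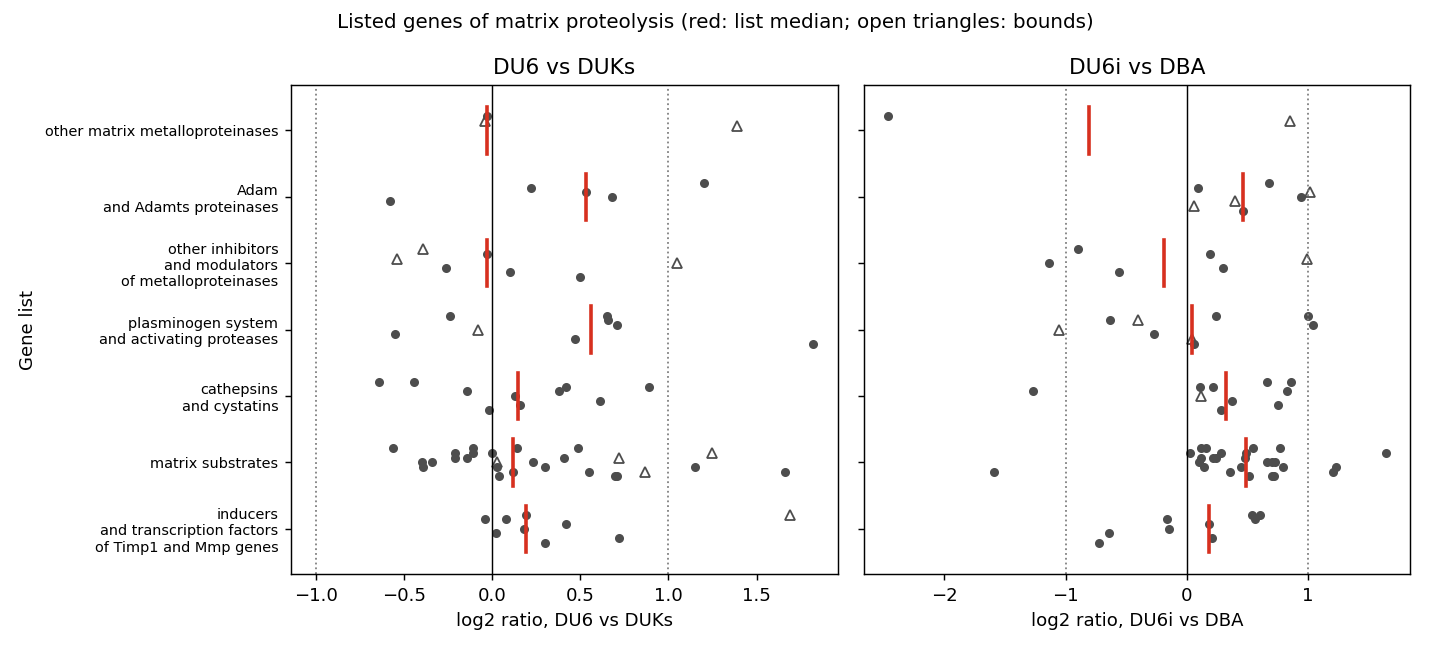
Log2 ratios of the measured genes of the 7 lists, DU6 over DUKs on the left and DU6i over DBA on the right, 1 point for each gene; open triangles are bounds, red lines list medians and dotted lines 2-fold. The matrix substrates have a median of 0.12 on the left and 0.48 on the right, and the lowest point on the right is Mmp7 at -2.46.

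The test that the design allows, limma with 2 lines on each side (DU6 and DU6i against DUKs and DBA), called none of 5267 probe sets at an adjusted p under 0.05, a share of 0%. Without adjustment, 252 (4.78%) had a p under 0.05. Of the 85 probe sets of 67 list genes in that fit none was called, and 10 (11.8%) had an unadjusted p under 0.05. These 10 were higher on the DU6 side, but for Thbs2 and Mmp12 among them no other direction was possible. Nothing is therefore read from the 11.8% beside the 4.78%. A fit with a line left out has 1 line alone on a side, so its counts are not given. Htra3 was higher by 1.41 on the log2 scale (SE 0.32, limma adjusted p = 0.978). The rest were probe sets of Serpinf1, Adam15, Col5a1, Tnxb (2 probe sets), Nid2, Cebpb, Thbs2 and Mmp12. Thbs2 and Mmp12 were at the floor in both DUKs and DBA and entered the fit through DU6 and DU6i alone, which fixed their direction beforehand. Nid2 and Cebpb were at the floor in DUKs. The differences of Thbs2, Mmp12, Nid2 and Cebpb in this fit are bounds, with a spread set in part by the floor, and are not given. The spread in this test is between lines, and DU6i derives from DU6, so that the lines are not independent.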

How the data were processed

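RNA from 1 pool per line was hybridised to Affymetrix chip A and chip B arrays. Intensity values were made by the authors, per the labels, in Affymetrix software (Data Mining Tool 1.2, Microarray Suite 4.0.1), and every array was scaled on its full set of probes. They are linear, and some lie below 0. Whether they are average differences is not given in the sources used here, and detection calls were not used. The 13069 probe sets other than the 110 controls were named through the platform annotation: 7542 had 1 symbol, 224 several (not named) and 5303 none. Where a gene had several, the one with the highest mean signal was used.

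Floored log2 ratios were computed within a chip for a probe set above the floor on at least 1 array of a pair; one against a floored signal is a bound. limma 3.58.1 (R 4.3.3; lmFit, eBayes), tested on simulated data, was run where 2 or more of the 4 arrays exceeded the floor, with Benjamini-Hochberg adjustment over both chips. Python 3.11.15 did the rest. The members and gene lists were chosen with earlier results of these data known. Named genes are the members, the 3 nearest in pattern to each, and list genes at 2-fold in a main pair (DU6 with DUKs, DU6i with DBA); others were named after their values were seen. Other settings were trimmed mean rescaling, quantile normalisation, a floor halved or doubled, log2(signal + floor), 1.5-fold, all probe sets of a gene, and, for limma, no filter and leaving out each line.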

Additional observations from a re-analysis of the deposited data

Results flagged for a closer look

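In the 5 measured members the main pairs ran opposite ways: the log2 ratio of DU6 with DUKs and that of DU6i with DBA had opposite signs. The share of all probe sets with opposite signs in the main pairs was not worked out, so nothing is read from that count. The first less the second was 2.26 for Timp1, -2.48 for Timp2 (with DBA at the floor), 0.57 for Timp3, -0.28 for Mmp2 and 0.61 for Mmp14. These differences were not tested, since each line has 1 pool. The main pairs also cross the pyruvate carboxylase split in opposite directions. On chip B the control ratio was 12.7% in DU6 against 55.6% in DUKs, and 45.3% in DU6i against 14.3% in DBA. The part of the control ratio in the opposite signs was not tested. Under quantile normalisation the ratios of Mmp2 had the same sign, 0.06 and 0.05. For Timp3, Mmp2 and Mmp14 each of the 2 ratios lay within the spread between probe sets.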

How the results depend on the processing

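A changed floor and log2(signal + floor) cannot reverse the direction of a ratio, and trimmed mean rescaling left the member ratios as they were. Quantile normalisation can reverse it, and under that setting no member ratio beyond the spread changed direction. For Timp1 in DU6 with DUKs the log2 ratio fell from 1.5 to a bound of 0.83 with the floor doubled and to 1.01 with log2(signal + floor), both by construction nearer to 0. In DU6i with DBA it ran from -0.76 to -0.45, and with the floor doubled it had no value. For Timp2 in DUKs with DBA it fell from a bound of 2.15 to 1.15 with the floor doubled, and in DU6 with DUKs it was -0.94, against -1.27, with log2(signal + floor). Members at 2-fold numbered 1 under the doubled floor and 1 under log2(signal + floor) in DU6 with DUKs (2 before), 0 and 0 in DU6i with DBA (1 before), and 0 under the doubled floor in DU6 with DU6i (1 before). In DU6 with DBA 1 member reached 2-fold with the floor halved, and in DU6i with DUKs 1 with quantile normalisation (Timp2, -1.06). At 1.5-fold, 2 members passed in DU6i with DBA, DU6 with DU6i, DU6 with DBA and DU6i with DUKs, and 3 in DUKs with DBA. List genes at 2-fold in DU6 with DUKs fell from 8 to 2 with the floor doubled and 4 with log2(signal + floor), and 20 passed 1.5-fold. In DU6i with DBA, 31 passed 1.5-fold, against 10 at 2-fold. The shares of all probe sets at 1.5-fold were not worked out, so nothing is read from the member and list counts at 1.5-fold. limma called 4 of 13069 probe sets without the filter on low signals. The fits with a line left out have 1 line alone on a side, and their counts are not given. No paired analysis was possible because each line has 1 pool per chip. The other probe set of a member could not be tried, as each has 1. Signals near the floor, those of Timp1 in DU6i and DUKs and of Timp2 in DBA, leave ratios that move with the floor.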
